A study of Mus musculus with 52 samples.

Results

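Kinesin-2 motors carry cargo along microtubules towards their plus ends. Kif3a and Kif3b encode motor subunits that pair with each other, and Kif3a can pair with Kif3c instead. Kifap3 encodes KAP3, the non-motor subunit that joins the Kif3a and Kif3b pair to its cargo, and Kif17 encodes a motor that works as a homodimer. Kinesin-2 drives anterograde intraflagellar transport, which builds the primary cilium and so bears on Hedgehog signalling, and in neurons it also moves vesicles and receptors in axons and dendrites. Kif17 is known for carrying NMDA receptor subunits in dendrites.

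The 5 genes were taken by name (Kif3a, Kif3b, Kif3c, Kifap3 and Kif17) out of 48526 gene IDs in each of the 3 deposited tables, and all 5 passed the filter on low values at each age. The family was chosen by the difference of Kif3a between genotypes in the P60 amygdala, so that difference is given as a description with no test. Poly-A RNA from the brain was sequenced in 52 libraries of 14 groups, from miR-146a KO mice, which lack Mir146, and from wild-type mice (WT). Whole cortex was taken at embryonic day 14 (E14; 5 KO and 4 WT libraries). Amygdala, frontal cortex and hippocampus were taken at postnatal day 30 (P30; 4 KO and 4 WT libraries for each region) and at postnatal day 60 (P60; 4 KO and 3 WT libraries each for amygdala and frontal cortex, 2 KO and 3 WT for hippocampus). These ages and regions follow the sample labels, and the series' design text names other ages and cortex areas. The growth protocol describes a human neural stem cell line, which does not match mouse tissue. The labels give no strain, sex, allele design or litter for single animals, and the series' design text says that the mice of a genotype had different mothers. Which libraries share a mother or an animal is not stated, so p-values measure the spread between these libraries, which may in part be technical.

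Depth was 2933026 to 9469214 reads per library, recovered from the deposited values. The summed level of 10 hippocampal marker genes was 2130 to 4966 in hippocampal libraries of both genotypes and ages, and at most 1146 in amygdala and 673.5 in frontal cortex libraries. For 9 frontal cortex markers the lowest frontal cortex library had 723.5 and the highest library of the other P30 and P60 regions 534.9. The WT P30 amygdala library of replicate 3 stood apart, with a sum of 222.2 over 9 amygdala markers, against 490.6 to 757.8 in the P30 amygdala libraries of KO mice and 615.2 to 742.1 in the other WT ones. The WT P30 hippocampus library of replicate 3 had a sum of 5916 over 10 choroid plexus markers, against 75.42 to 1258 in KO P30 hippocampus libraries and at most 210.1 in the other WT ones. Results of the kinesin-2 genes that move with either library are given with and without it. Comparisons of marker lists between genotypes are given with all libraries. Mir146 itself was given 1 read over all 52 libraries, so the labels could not be checked by the deleted gene, whose product is not a poly-A messenger RNA.

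Positions are from the GENCODE M21 annotation of GRCm38. Kif3a (ENSMUSG00000018395) lies at chr11:53567379-53601967 on the plus strand, 10.19 Mb from Mir146 at chr11:43374397-43374461. Kif3b (ENSMUSG00000027475) lies at chr2:153291413-153333390, Kif3c (ENSMUSG00000020668) at chr12:3365132-3406494, Kifap3 (ENSMUSG00000026585) at chr1:163779583-163917109 and Kif17 (ENSMUSG00000028758) at chr4:138250435-138301967, all on the plus strand. Kif17 overlaps Sh2d5, a protein-coding gene on the same strand. Kif3c overlaps the antisense genes 1110002L01Rik and Gm48512 and the unclassified gene Gm48511. The kit keeps strand, but the sources do not say whether the counting used it, and values of Kif17 and Kif3c are uncertain to that extent.

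The missing microRNA is shown first, since its seed (bases 2 to 8, in capitals) sets which messenger RNAs it can pair with. It is encoded on the minus strand at chr11:43374435-43374456 (RefSeq, GRCm38.p6):
mmu-miR-146a-5p: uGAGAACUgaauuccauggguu
The seed pairs with AGTTCTC in a messenger RNA. This word was not found in any annotated 3′ untranslated region of the 5 genes (GENCODE M21, the longest being 908 bases for Kif3a, 3235 for Kif3b, 3609 for Kif3c, 1405 for Kifap3 and 107 for Kif17). Among the longest such regions of 20987 protein-coding genes, 11.1% held it. The search covers these letters in these regions only.

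The start of Kif3a is shown because another transcript, A430108G06Rik, begins next to it on the opposite strand and was also measured. RefSeq places the first base of Kif3a at 53567369 and that of A430108G06Rik at 53567313, so the starts lie 56 bases apart and the 300 bases below hold both. The window is chr11:53567119-53567418, plus strand, GRCm38.p6, 250 bases before to 50 after the Kif3a start, with the motifs GGGCGG and GCGCATGCG in capitals:
Kif3a: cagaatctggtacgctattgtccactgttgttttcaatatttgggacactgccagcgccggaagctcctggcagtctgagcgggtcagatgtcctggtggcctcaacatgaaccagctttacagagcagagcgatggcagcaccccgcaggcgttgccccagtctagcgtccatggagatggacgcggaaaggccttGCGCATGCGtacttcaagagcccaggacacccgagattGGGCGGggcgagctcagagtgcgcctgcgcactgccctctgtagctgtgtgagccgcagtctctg
The window held 18 CpG dinucleotides, against a median of 7 over 32851 RefSeq promoters of the same length. On both strands, GCGCATGCG, letters from the middle of the NRF1 consensus, was found in 1.75% of those promoters and began 53 bases before the Kif3a start (position -53), which is -11 from the A430108G06Rik start. GGGCGG, the GC box, was in 35.7% of promoters and stood at -15, where it overlapped a CCAAT motif on the opposite strand at -18 (CCAAT was in 37.4%). GTTGCC was in 12.5% and stood at -98, and TGACGTCA, in 1.79%, was found in the Kif17 window and not in that of Kif3a. All 5 members had a promoter entry, and the Kifap3 window was the other of the 5 to hold GCGCATGCG.

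Kif3a, the subunit shared by both heterodimers, was lower in KO than in WT mice in each of the 7 pairs of groups. In the E14 cortex the KO libraries had 139, 123, 134, 158 and 152, against 182, 169, 171 and 161 in the WT libraries, in the authors' normalised units, which are used throughout. Every KO library was below every WT library, which held for 0.512% of the genes tested there. The log2 fold change was -0.28 (SE 0.078) with an unadjusted p of 0.0043, and it did not pass the adjustment over all genes (limma adjusted p = 1.00). Of all genes, 0.049% passed in the E14 cortex. In bulk tissue, fewer cells of a type and less RNA per cell cannot be told apart.

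At P30 the direction of Kif3a was the same in all 3 regions. In the amygdala KO libraries had 169, 173, 164 and 169, against 203, 208, 160.1 and 199 in WT libraries, and the groups overlapped through WT replicate 3, the library with few amygdala markers (2.52% of genes had every KO library lower). The log2 fold change was -0.18 (SE 0.075, limma adjusted p = 0.41), and -0.27 (SE 0.068, limma adjusted p = 0.28) without that library. In the frontal cortex KO libraries had 136, 145, 136 and 129, against 168, 159, 162 and 164 in WT libraries, which did not overlap (0.985% of genes had every KO library lower). The log2 fold change there was -0.26 (SE 0.075, unadjusted p = 0.0019, limma adjusted p = 1.00).

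The P30 hippocampus had the largest of the 3 P30 differences of Kif3a. The KO libraries had 116, 113, 120.3 and 135, against 151, 158, 144 and 173 in the WT libraries, with no overlap (1.63% of genes had every KO library lower). The log2 fold change of -0.37 (SE 0.075) did not pass the adjustment (limma adjusted p = 0.0738). It passed without WT replicate 3, the library high in choroid plexus markers (-0.41, limma adjusted p = 0.0292), without WT replicate 1 (-0.38, limma adjusted p = 0.0175) and without KO replicate 4 (-0.42). The rest of the 8 fits that left out a library did not pass (limma adjusted p up to 0.235). With KO and WT libraries of the same number kept as a block it did not pass either (limma adjusted p = 0.54). Called genes made up 0.0263% of those tested for the P30 amygdala, 0.0158% for frontal cortex and 0.0316% for hippocampus.

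Averaged over the 3 P30 regions, Kif3a had a log2 fold change of -0.27 (SE 0.049, 95% interval -0.38 to -0.17, unadjusted p = 0.0001), which did not pass over all genes (limma adjusted p = 0.19; 0.0263% of genes passed). Leaving out WT replicate 3 of each region gave -0.31 (SE 0.038), which passed (limma adjusted p = 0.0034). Of the 8 fits that each left out a replicate number of a genotype, no other passed (limma adjusted p up to 0.81). With KO and WT libraries of the same number kept as a block, the Kif3a difference did not pass (limma adjusted p = 0.33). The test of a different KO effect between the 3 regions gave F = 1.54 for Kif3a (limma adjusted p = 0.97, unadjusted p = 0.23). No gene passed that test (0% of genes, 4.59% at an unadjusted p under 0.05).

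At P60 the Kif3a groups were clear of each other in all 3 regions. In the amygdala, the comparison that led to the choice of the family, KO libraries had 159, 162, 147 and 154, against 215, 201 and 201 in WT libraries. The mean was 155 ± 6.53 in KO and 206 ± 8.43 in WT libraries (SD, n = 4 and 3), a difference of -24.5% and a log2 fold change of -0.40 (SE 0.065). With KO and WT libraries of the same number kept as a block, the log2 fold change was -0.40 (SE 0.076), and the call that led to the choice was then lost. It was also lost when genes of low values were kept, when the other regions were left out of the fit, and without any single library but 1 (KO replicate 2). Of all genes, 0.0208% were called in that amygdala comparison and 2.64% had every KO library lower.

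In the P60 frontal cortex Kif3a had 133, 126, 134 and 126 in KO libraries, against 166, 184 and 168 in WT libraries. The mean fell to 130 ± 4.60 in KO, against 172 ± 9.84 in WT libraries (SD, n = 4 and 3), by 0.41 on the log2 scale (SE 0.065, limma adjusted p = 0.0161), and 0.0312% of genes passed there. That result was already known when the family was chosen, so it is not independent support. It kept its call without KO replicate 3 (limma adjusted p = 0.0411) and lost it without any other library, most of all without WT replicate 2 (-0.36, limma adjusted p = 0.34), and when the other regions were left out of the fit (limma adjusted p = 0.0892).

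In the P60 hippocampus, with 2 KO libraries, Kif3a had 115 and 111 in KO, against 145, 136 and 151 in WT libraries. The log2 fold change was -0.34 (SE 0.078, unadjusted p = 3.1e-04), and it did not pass (limma adjusted p = 0.84; 0.0208% of genes passed). With KO and WT libraries of the same number kept as a block, the log2 fold change was -0.31 (SE 0.11, limma adjusted p = 0.93). Every KO library was again lower, which held for 5.56% of genes in this smallest comparison and for 2.58% in the P60 frontal cortex. Over the 7 settings the mean of Kif3a was 12.5% to 24.9% lower in KO than in WT mice.

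**Figure D1:**
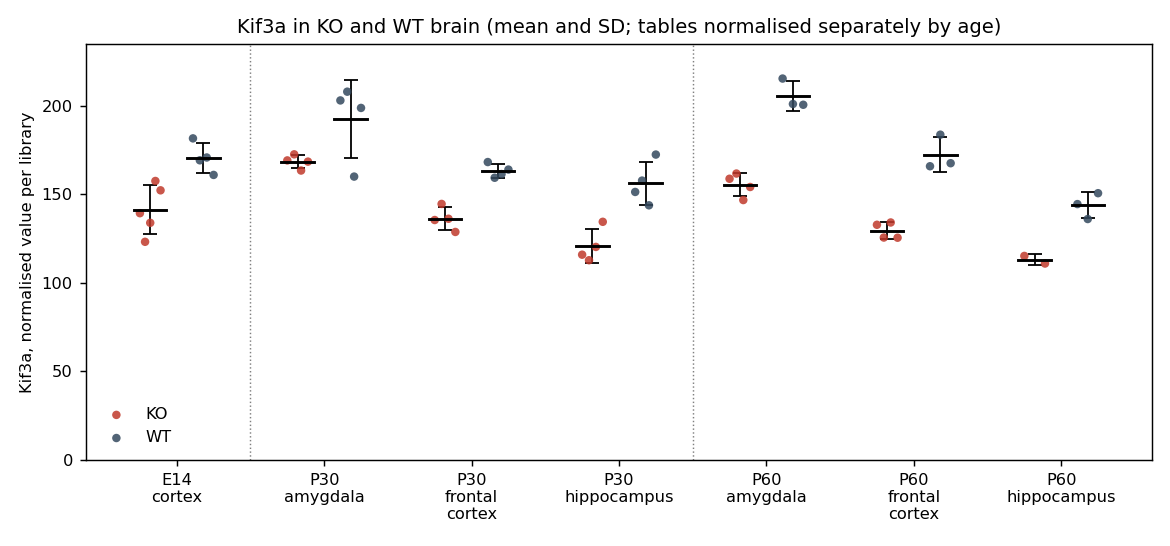
Normalised value of Kif3a in each library (points), with the mean and SD (bars), for KO (red, left) and WT (blue, right) in the 7 settings; the 3 ages come from tables normalised separately. KO libraries lie below all WT libraries in 6 of 7 settings, and in the P30 amygdala 1 WT library (160.1) lies below the KO ones.

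Of 16682 genes tested at all ages, 3 had every KO library lower in 6 or more of the 7 settings and 2 had every KO library higher. These were Kif3a, Gm2a and Pttg1 (lower) and Lyrm7 and Tnip1 (higher). All 5 lie on chromosome 11, with starts between 43420250 (Pttg1) and 55098115 (Gm2a). Lyrm7 was apart in all 7 settings. The tally for Kif3a includes the P60 amygdala, by which the family was chosen, and it was apart in 5 of the other 6 settings, so its place in this list is a description.

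The transcript that starts beside Kif3a was also lower in KO mice, without passing the test. A430108G06Rik, a non-coding processed transcript at chr11:53564688-53567313 on the minus strand, had low values throughout. It averaged 0.648 ± 0.214 in KO and 2.00 ± 1.04 in WT libraries of the P60 amygdala (SD, n = 4 and 3), where all KO libraries were lower, with a log2 fold change of -0.81 (SE 0.24, limma adjusted p = 1.00). In the P30 hippocampus it averaged 0.665 ± 0.303 in KO and 1.40 ± 0.150 in WT libraries (SD, n = 4 each), and in the P60 hippocampus both KO libraries had 0.620, against 1.51 to 1.91 in WT libraries. Its log2 fold change was below 0 in all 7 settings, between -0.28 in the E14 cortex and -0.81, and the groups did not overlap in those 3 settings. Every KO library was lower for 2.64% of genes in the P60 amygdala, 1.63% in the P30 hippocampus and 5.56% in the P60 hippocampus. Of the 29 genes annotated within 250 kb of Kif3a, 11 were tested at E14 and 14 at P30 and P60. None of them was called in any of the 7 settings (limma), and 1 to 3 had an unadjusted p under 0.05 in each. Sept8, a septin gene upstream of Kif3a, had every KO library lower in the P60 amygdala (2.64% of genes) and the P60 hippocampus (5.56%). Uqcrq, which encodes a subunit of respiratory complex III, had every KO library higher in the E14 cortex (log2 fold change 0.45), the P30 frontal cortex (0.24) and the P60 frontal cortex (0.19). That held for 0.643%, 1.37% and 2.68% of genes there. Neither Sept8 nor Uqcrq was called, and both are named here after their values were seen.

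**Figure D2:**
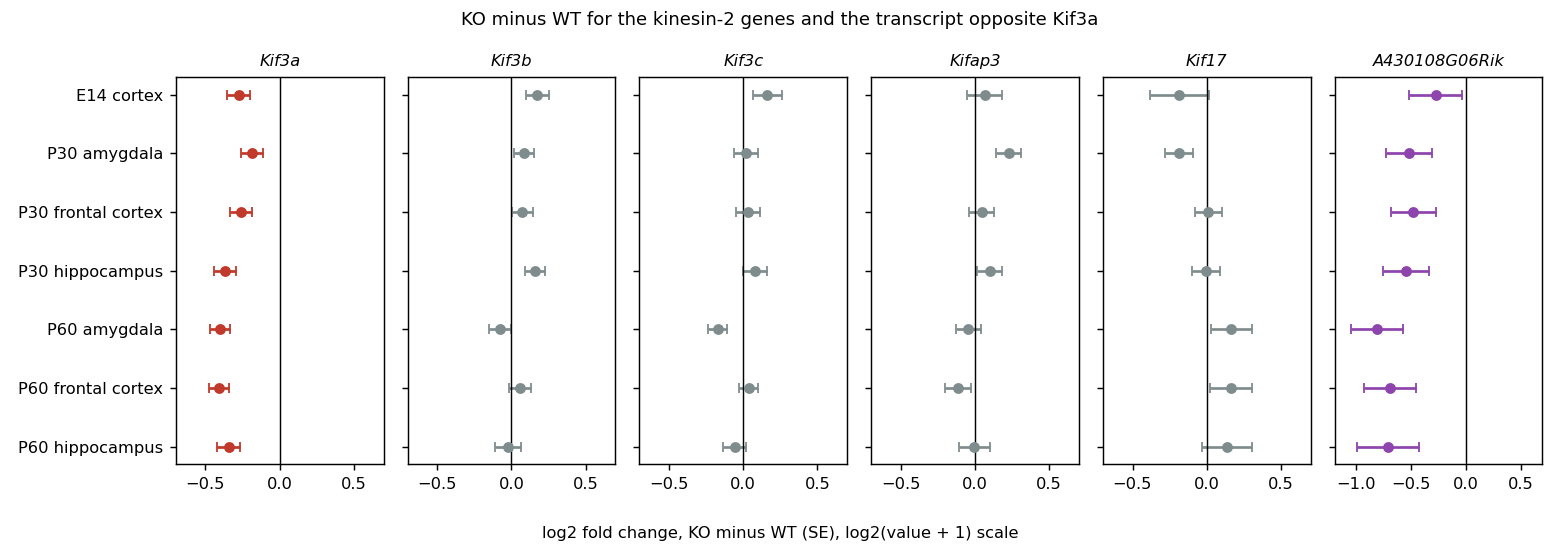
Log2 fold change (KO minus WT, with its SE) on the log2(value + 1) scale for the 5 kinesin-2 genes and A430108G06Rik in the 7 settings, top to bottom from E14 to P60. Kif3a and A430108G06Rik lie below 0 in all 7 settings, and the other 4 genes lie on either side of 0.

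The partners of Kif3a gave no called difference between genotypes in any of the 7 settings (limma), in the fits above or in any of the other settings tried. Kif3b, the usual partner motor, had 56.9 ± 4.05 in KO and 50.4 ± 4.11 in WT libraries of the E14 cortex (SD, n = 5 and 4), with a log2 fold change of 0.17 (SE 0.078, unadjusted p = 0.048, limma adjusted p = 1.00). It was at 0.16 (SE 0.068, limma adjusted p = 0.48) in the P30 hippocampus and at -0.08 (SE 0.074) in the P60 amygdala, so its sign was not the same throughout. In the P60 hippocampus both KO libraries of Kif3b (60.4 and 60.8) were below the WT ones (60.9 to 62.0), as for 5.56% of genes there.

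Kif3c, the alternative partner motor, had 152 to 166 in KO libraries of the P60 amygdala, against 169 to 193 in WT libraries. All KO libraries were lower, as for 2.64% of genes there, with a log2 fold change of -0.17 (SE 0.066, unadjusted p = 0.017, limma adjusted p = 1.00). In the E14 cortex the log2 fold change of Kif3c was 0.16 (SE 0.097), and in the other settings it lay between -0.06 and 0.08. The lowest WT value of the P30 hippocampus, 128, was from replicate 3, and without that library the log2 fold change there was -0.02 instead of 0.08.

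Kifap3, the cargo-linking subunit, had its largest difference in the P30 amygdala, where KO libraries had 294 ± 30.8 and WT libraries 250.1 ± 11.3 (SD, n = 4 each). The groups overlapped and the log2 fold change of 0.23 (SE 0.083, unadjusted p = 0.012) did not pass (limma adjusted p = 0.37). Without WT replicate 3 it was 0.21 (limma adjusted p = 0.57). In that region every KO library was lower for the summed level of 7 astrocyte markers (5615 to 6273 in KO, 6301 to 9308 in WT) and of 5 oligodendrocyte precursor markers (204.3 to 237.0 in KO, 265.8 to 295.5 in WT). Among single genes, 2.52% had every KO library lower there. Other lists had overlapping sums with all tested genes below 0, by a median log2 fold change of -0.84 for 10 choroid plexus, -0.54 for 9 myelin, -0.34 for 5 endothelial and -0.32 for 7 microglial markers. Choroid plexus sums were 22.17 to 1350 in WT (median 47.42) and 19.29 to 26.18 in KO libraries. Myelin sums were 1817 to 6970 in WT (median 2337) and 1443 to 2348 in KO libraries. Endothelial sums were 200.8 to 353.9 in WT (median 219) and 172.9 to 215 in KO libraries. These fold changes are given with all libraries, so a high WT library can weigh on them. The part of these cells in the Kifap3 and Kif3a values was not tested. In the other 6 settings Kifap3 lay between -0.12 and 0.10, the upper end being the P30 hippocampus, where it was 0.048 without WT replicate 3.

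Kif17, the homodimeric motor, had log2 fold changes between -0.19 and 0.17 with SE of 0.094 to 0.20, none called. At P30 its 95% intervals were -0.38 to 0.0035 (amygdala), -0.18 to 0.20 (frontal cortex) and -0.20 to 0.19 (hippocampus). Both P60 estimates with 4 KO libraries were near 0.17 (SE 0.14), with intervals that reach 0.46. These intervals do not show that the genotypes are alike.

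Marker lists were also compared between genotypes in the other settings, where the sums of most lists overlapped. For single genes, every KO library was lower for 1.63% in the P30 hippocampus and 5.56% in the P60 hippocampus. In the P60 frontal cortex every KO library was lower for 2.58% of genes and higher for 2.68%. The sums that were apart are given beside these shares as descriptions. In the P30 hippocampus 9 amygdala markers summed to 181.0 to 202.6 in KO and 231.2 to 281.0 in WT libraries, and 6 interneuron markers to 410.9 to 490.9 in KO and 509.7 to 604.2 in WT libraries. There the sums of other lists overlapped while all tested genes lay below 0, by a median log2 fold change of -0.80 for 9 myelin, -0.73 for 10 choroid plexus, -0.51 for 5 oligodendrocyte precursor and -0.31 for 8 ependymal markers. Choroid plexus sums were 75.42 to 1258 in KO and 49.48 to 5916 in WT libraries, where 5916 was WT replicate 3. These medians are given with that library only. In the E14 cortex 0 of 7 cortical neuron markers lay below 0 (median 0.40), with sums of 1582 to 2482 in KO and 1212 to 1622 in WT libraries. In the P60 frontal cortex amygdala markers summed to 137.3 to 159.3 in KO and 162.2 to 180.6 in WT libraries, astrocyte markers to 6232 to 6683 in KO and 6060 to 6162 in WT libraries, and 5 endothelial markers to 220.7 to 249.6 in KO and 211.3 to 213.9 in WT libraries. In the P60 hippocampus astrocyte markers summed to 5649 to 6085 in KO and 6200 to 6565 in WT libraries. No gene of these lists was called, and their part in the Kif3a values was not tested.

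Genes that work with kinesin-2 were read from lists covering the intraflagellar transport complexes IFT-B and IFT-A, the BBSome, dynein-2, ciliary and Hedgehog genes, reported cargoes and adaptors, and other kinesins. The IFT-A list of 7 genes includes Tulp3, and the dynein-2 list of 9 includes Dynlt1b, Dynll1, Dynll2 and Dynlrb1. No gene of any list passed the test between genotypes in any setting (limma), and at most 2 genes of a list had an unadjusted p under 0.05 in a setting, where 1.96% to 9.82% of all genes did. The 17 IFT-B genes tested had median log2 fold changes between -0.03 and 0.04, and the 9 dynein-2 genes, the motor for the return transport, between -0.02 and 0.06. Other lists lay further from 0 in single settings, with no gene called. All 12 mitotic kinesins lay below 0 in the E14 cortex (median -0.16), the 7 kinesin-3 genes had a median of -0.14 in the P30 amygdala, the BBSome 0.10 in the P60 amygdala and IFT-A 0.096 in the P60 hippocampus. Over all genes tested the median lay between -0.004 and 0.01. Of 35 to 38 kinesin genes tested in a setting, none but Kif3a was called. Its calls were in the P60 amygdala, by which the family was chosen, and the P60 frontal cortex, known at the choice. That count is therefore a description and gives no independent support.

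Between regions, with both genotypes averaged, Kif3a was highest in the amygdala at both ages. At P30 it averaged 181 ± 19.4 in amygdala and 149.8 ± 15.3 in frontal cortex libraries (SD, n = 8 each), a log2 difference of 0.27 (SE 0.053, limma adjusted p = 2.8e-04). At P60 it averaged 177 ± 27.7 in amygdala and 148 ± 23.8 in frontal cortex libraries (SD, n = 7 each), a log2 difference of 0.26 (SE 0.046, limma adjusted p = 3.0e-04). These SD include the gap between genotypes, and with WT libraries alone the log2 differences were 0.23 (limma adjusted p = 0.0283) at P30 and 0.25 (limma adjusted p = 0.0255) at P60. Of all genes, 37.3% were called between these regions at P30 and 31.4% at P60, so a call here is common.

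Against the hippocampus, Kif3a in the amygdala was higher by 0.39 on the log2 scale at P30 (SE 0.053, limma adjusted p = 1.4e-06; 44.1% of genes called) and by 0.48 at P60 (SE 0.051, limma adjusted p = 1.3e-06; 29% of genes called). In the hippocampus it averaged 139 ± 21.5 at P30 (SD, n = 8) and 132 ± 17.7 at P60 (SD, n = 5). Set against the frontal cortex the hippocampal log2 difference was -0.12 at P30 (SE 0.053, limma adjusted p = 0.0712) and -0.23 at P60 (SE 0.051, limma adjusted p = 0.0019). The order of Kif3a was thus amygdala, frontal cortex, hippocampus at both ages, and at P30 the difference of the last 2 missed the adjusted threshold, with a 95% interval of -0.23 to -0.01. Without WT replicate 3 of the P30 amygdala, Kif3a there was higher by 0.31 than in frontal cortex and by 0.43 than in hippocampus libraries. Without WT replicate 3 of the P30 hippocampus, the hippocampal difference from frontal cortex was -0.10 (limma adjusted p = 0.12).

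Kif17 had another order, with the frontal cortex on top. At P30 amygdala libraries had 12.01 to 17.4 and frontal cortex libraries 21.0 to 26.0, with no overlap, a log2 difference of -0.54 (SE 0.066, limma adjusted p = 6.2e-07). Hippocampus libraries had 13.2 to 15.4 at P30, which gave -0.67 against the frontal cortex (SE 0.066, limma adjusted p = 6.1e-09; 43.3% of genes called between these regions). At P60 amygdala libraries had 14.1 to 20.4 and frontal cortex libraries 26.7 to 37.9, a log2 difference of -0.71 (SE 0.099, limma adjusted p = 2.4e-05).

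The hippocampus changed its place for Kif17 between the ages, which come from separate tables and were not tested against each other. At P30 the amygdala minus hippocampus log2 difference was 0.13 (SE 0.066, limma adjusted p = 0.11). At P60 it was -0.43 (SE 0.11, limma adjusted p = 0.0057), with 14.1 to 20.4 in the amygdala and 18.6 to 28.3 in the hippocampus. The P60 hippocampus minus frontal cortex difference of Kif17, -0.28 (SE 0.11), did not pass (limma adjusted p = 0.0566; 32.8% of genes called). Sh2d5, which overlaps Kif17, had 28.0 to 76.0 at P30 and 39.8 to 79.4 at P60, and its part in the Kif17 values was not tested.

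**Figure D3:**
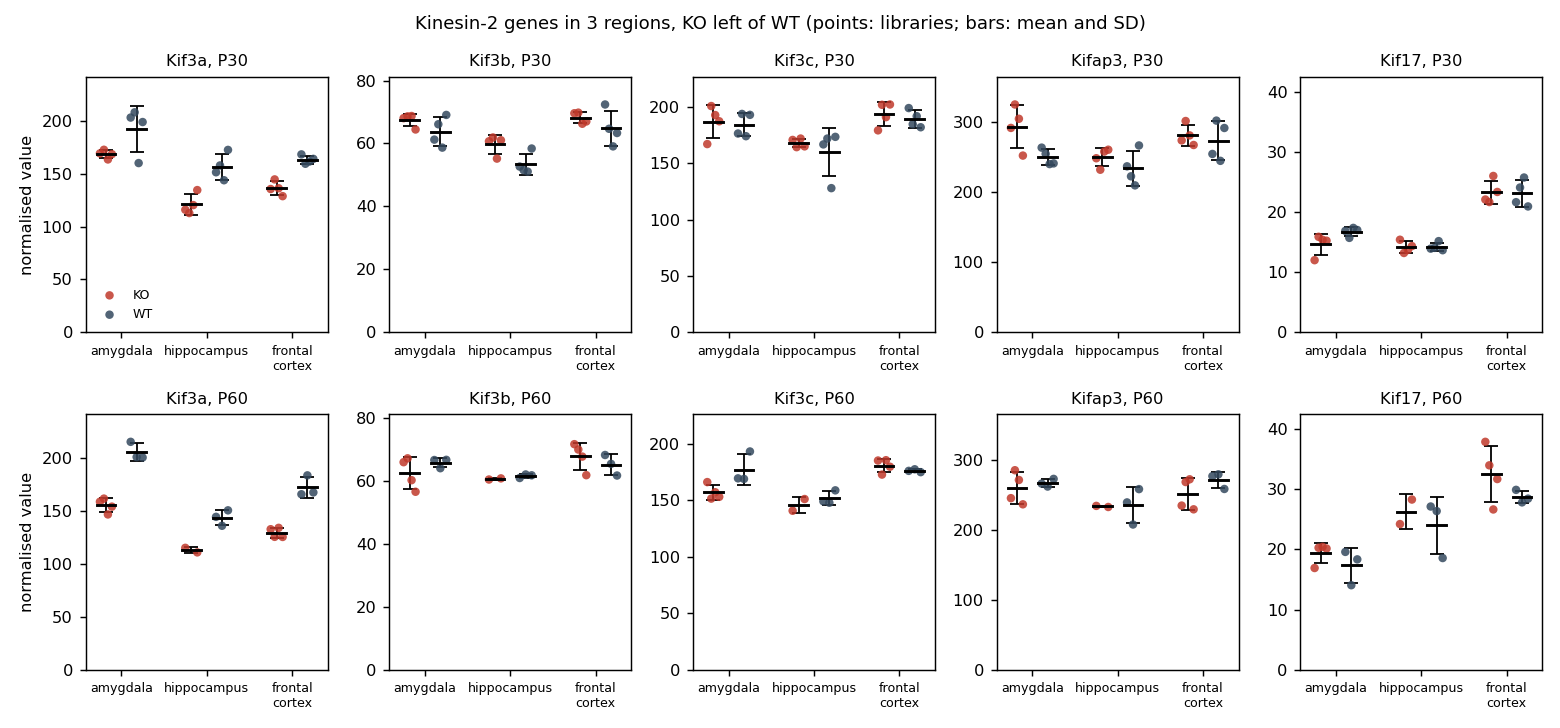
Normalised value of each kinesin-2 gene by library in the amygdala, hippocampus and frontal cortex at P30 (top) and P60 (bottom), KO (red) left of WT (blue), with the mean and SD. Kif3a is highest in the amygdala, Kif17 in the frontal cortex, and the groups of Kif3b, Kif3c and Kifap3 lie closer together.

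Kif3b, Kif3c and Kifap3 were lower in the P30 hippocampus than in both other regions, where a call is common. Of all genes, 43.3% were called between hippocampus and frontal cortex at P30 and 32.8% at P60. Between amygdala and hippocampus 44.1% were called at P30 and 29% at P60. At P30, hippocampus minus frontal cortex gave -0.23 for Kif3b (SE 0.048, limma adjusted p = 3.2e-04), -0.23 for Kif3c (SE 0.056, limma adjusted p = 0.0019) and -0.20 for Kifap3 (SE 0.059, limma adjusted p = 0.0084). Without WT replicate 3 of the hippocampus these were -0.22, -0.17 and -0.17, all still called. At P60 only Kif3c of the 3 passed (-0.26, SE 0.051, limma adjusted p = 6.2e-04), while Kifap3 was at -0.16 (limma adjusted p = 0.0792) and Kif3b at -0.12 (limma adjusted p = 0.13). Between amygdala and frontal cortex none of Kif3b, Kif3c and Kifap3 passed at either age, with log2 differences between -0.10 and 0.01. Between amygdala and hippocampus at P30 Kif3b (0.21), Kif3c (0.18) and Kifap3 (0.16) passed. With median-of-ratios scaling they were 0.13, 0.097 and 0.079, and Kif3c and Kifap3 no longer passed. In WT libraries alone Kifap3 was at 0.099 (limma adjusted p = 0.40), while Kif3b and Kif3c passed. Of 16 fits that left out a library, 5 lost the call of Kifap3. At P60 Kif3c (0.16, limma adjusted p = 0.0222) passed and Kif3b (0.066) and Kifap3 (0.17) did not. With libraries of the same number kept as a block, Kifap3 passed there too (0.18, limma adjusted p = 0.0407).

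Markers of ciliated ependyma, which carries motile cilia built by kinesin-2, also differed by region. Their summed level over 10 genes was 30.68 to 73.87 in KO and 28.22 to 86.43 in WT libraries of the P30 amygdala, 78.57 to 112.4 in KO and 92.42 to 183.2 in WT libraries of the P30 hippocampus, and 22.23 to 31.75 in KO and 19.42 to 24.90 in WT libraries of the P30 frontal cortex. The part of these cells in the kinesin-2 values was not tested. Genes of ciliary transport also differed between regions. Between amygdala and frontal cortex at P30, 5 of 7 IFT-A genes were higher and 0 lower, and 6 of 9 dynein-2 genes were higher and 1 lower, where 23.4% of all genes were called higher and 13.9% lower. Of 17 IFT-B genes 7 were higher and 2 lower. Of 9 BBSome genes 2 were higher, a share near that of all genes, and 0 lower. At P60 the counts were 4 higher and 0 lower of 7 for IFT-A, 5 and 1 of 9 for dynein-2, 5 and 1 of 17 for IFT-B and 2 and 0 of 9 for the BBSome, where 20.3% were called higher and 11% lower.

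Between hippocampus and frontal cortex at P30, 1 of 7 IFT-A genes was higher and 0 lower, and 2 of 9 dynein-2 genes were higher and 2 lower. Of 17 IFT-B genes 3 were higher and 4 lower, and of 9 BBSome genes 0 were higher and 4 lower. Of all genes, 19.6% were called higher and 23.7% lower there, a share near that of IFT-B and dynein-2.

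Among these, Ift122, an IFT-A subunit, had 40.4 ± 1.72 in the P30 amygdala and 33.1 ± 2.02 in the frontal cortex (SD, n = 8 each; log2 difference 0.28, limma adjusted p = 2.0e-04). Dync2h1, the dynein-2 heavy chain, had 130.4 ± 12.3 in the P30 amygdala and 111.6 ± 5.95 in the frontal cortex (SD, n = 8 each; log2 difference 0.22, limma adjusted p = 0.0034). Kinesin-1 is the main axonal transport motor. Of its 6 tested genes 3 were lower in the amygdala than in the frontal cortex and 0 higher at each age. Of all genes, 23.4% were called higher and 13.9% lower there at P30, and 20.3% higher and 11% lower at P60. In the hippocampus 5 of the 6 were lower than in the frontal cortex and 0 higher at each age. For that comparison 19.6% of all genes were called higher and 23.7% lower at P30, and 15.8% higher and 17% lower at P60. Between amygdala and hippocampus 3 of the 6 kinesin-1 genes were higher and 0 lower at each age. Of all genes, 28.8% were called higher and 15.3% lower there at P30, and 19.6% higher and 9.39% lower at P60. Kif5a, a neuronal kinesin-1 heavy chain, had 1725 ± 196 in the P30 amygdala and 2138 ± 137 in the frontal cortex (SD, n = 8 each; log2 difference -0.32, limma adjusted p = 0.0019).

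Levels of the 5 genes were compared within a library as values per kb of annotated exon, since the gene lengths differ. In the WT P30 frontal cortex Kifap3 had 68.2 ± 6.96 per kb, Kif3a 45.5 ± 1.06, Kif3c 25.5 ± 1.03, Kif3b 11.5 ± 0.985 and Kif17 5.05 ± 0.484 (SD, n = 4). Kif3a was below Kifap3 in all 24 P30 and 19 P60 libraries, with a ratio of 0.52 to 0.92. In the E14 cortex Kif3a over Kifap3 was 0.77 to 0.95 in KO and 1.08 to 1.10 in WT libraries, so the order of these 2 subunits differed by genotype there.

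The alternative partner Kif3c was above Kif3b per kb in every library. Kif3c over Kif3b had a median of 2.24 at E14 (1.98 to 2.48), 2.19 at P30 (1.87 to 2.54) and 1.97 at P60 (1.72 to 2.21). These ranges overlap, and KO and WT groups overlapped in each of the 7 settings. The sum of Kif3b and Kif3c over Kif3a per kb, the 2 partner motors against the shared subunit, was 0.78 to 0.89 in KO and 0.58 to 0.63 in WT libraries of the E14 cortex. It was 0.97 to 1.09 in KO and 0.78 to 0.85 in WT libraries of the P30 frontal cortex, and 0.99 to 1.02 in KO and 0.69 to 0.78 in WT libraries of the P60 frontal cortex. The ratio holds the Kif3a difference itself, so it is given as a description.

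Kif17 was hardly detected in the embryo. In the E14 cortex it had 0.570 to 1.48 in KO and 0.860 to 1.96 in WT libraries, on 5 to 17 reads. At P30 it had 12.01 to 26.0 over all libraries and at P60 14.1 to 37.9. As a percentage of Kif3a per kb within the same library, which the separate scaling of the tables leaves unchanged, Kif17 had a median of 0.591% at E14 (0.362% to 0.844%), 8.42% at P30 (5.55% to 14.9%) and 13.3% at P60 (5.47% to 22.3%). The E14 range lay below every P30 and P60 library, and the P30 and P60 ranges overlapped. E14 is whole cortex, so age and the tissue taken cannot be told apart.

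**Figure D4:**
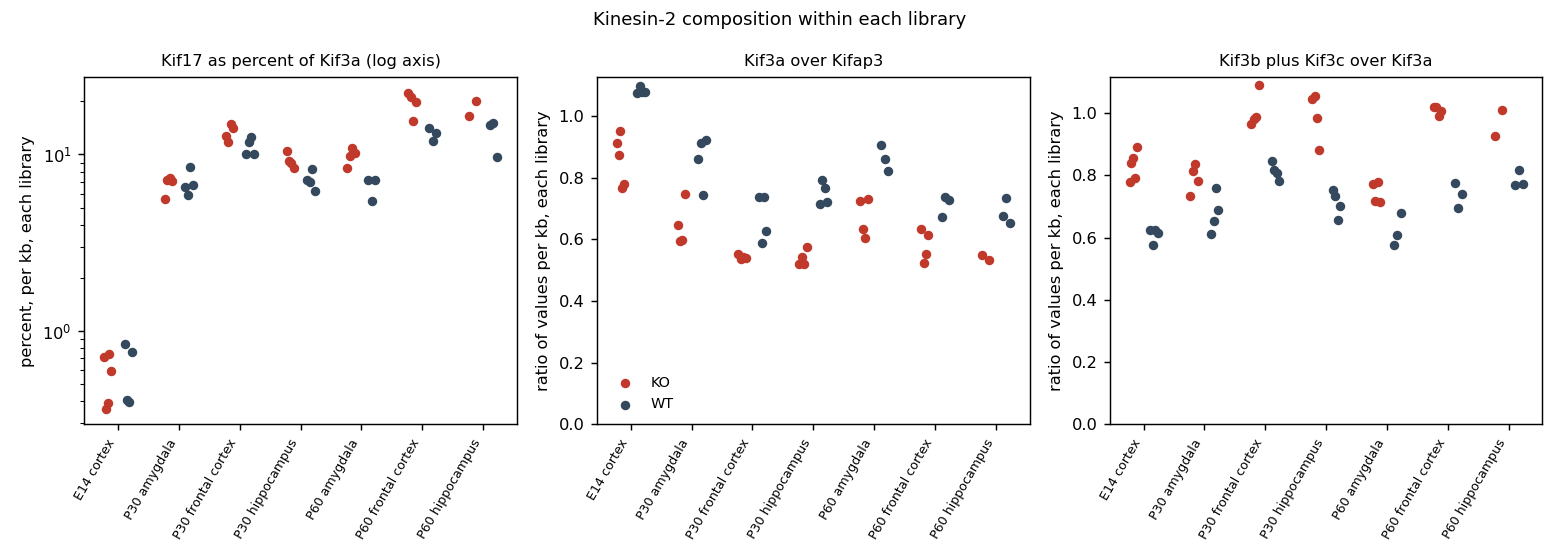
Within-library ratios of values per kb for each KO (red, left) and WT (blue, right) library: Kif17 as a percentage of Kif3a on a log axis, Kif3a over Kifap3, and Kif3b plus Kif3c over Kif3a. Kif17 is under 1% of Kif3a at E14 and above 5% later, and Kif3b plus Kif3c over Kif3a is higher in KO than in WT libraries with an overlap in the P30 amygdala.

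Across the 24 P30 libraries, which share region and genotype as sources of variation, Kif3b, Kif3c and Kifap3 were correlated with each other (Pearson r of 0.72 for Kif3b and Kif3c, 0.67 for Kif3b and Kifap3, 0.59 for Kif3c and Kifap3). Kif3a was little correlated with them (0.22 with Kif3b, 0.30 with Kif3c, 0.15 with Kifap3). Over the 19 P60 libraries the same pairs had 0.64, 0.45 and 0.43, and Kif3a had 0.20, 0.37 and 0.55. The genes whose P30 pattern was most like that of Kif3a were Pbx4 (r = 0.86; 0.39 at P60), Mtss1l (0.84; 0.53 at P60) and Grin2d (0.83; 0.44 at P60). For Kif17 they were Xirp2 (0.94; 0.68 at P60), Nxf7 (0.94; 0.69 at P60) and Herc6 (0.94; 0.54 at P60), and for Kif3c Mras (0.90; 0.63 at P60), Apba1 (0.90; 0.41 at P60) and Atcay (0.90; 0.70 at P60). Kifap3 was closest to Atp6v1b2, a subunit of the vacuolar proton pump (0.91; 0.80 at P60, where it ranked 9 of 18686 genes), followed by Slitrk4 (0.89; 0.69 at P60) and Atp6v0a1 (0.89; 0.41 at P60), and Kif3b to Nsd2 (0.86; 0.34 at P60), Gm6277 (0.85; 0.70 at P60) and Rap1gap2 (0.85; 0.66 at P60). These are descriptions over libraries that also share depth and dissection.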

How the data were processed

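Poly-A RNA of 52 brain libraries was sequenced, per the labels' protocols. The authors deposited 3 tables, 1 per age, of normalised counts per gene, other than raw counts, with decimal commas; the submitters' processing notes name mm9, limma, DESeq and edgeR without roles. The values are whole reads times a factor for each library (at least 99.96% within 0.1 read), which gave E14 libraries 8079912 to 9469214 reads, P30 libraries 2933026 to 8141105 and P60 libraries 5322181 to 7379353. Counting error alone is thus small for Kif3a and large for Kif17 at E14 (5 to 17 reads).

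Genes passing a low-value filter numbered 18350 at E14, 18976 at P30 and 19239 at P60 of 48526. Of the IDs, 48058 matched GENCODE M21. Values were tested as log2(value + 1) with limma 3.58.1 in R 4.3.3 (trend, robust), all groups of an age in 1 fit, Benjamini-Hochberg adjustment over all genes tested, threshold 0.05, two-sided. A fold change is on this scale and understates low genes. The design had called for a count test if the values were counts; as they are not, limma was used. Ages were normalised separately and were not tested against each other. Python 3.11.15 and pandas 2.3.3 made the summaries, and the fit was tested on simulated data.

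The members and gene lists were chosen with earlier results of these data known. Named were the members, the 3 most alike genes per member, neighbours within 250 kb, and up to 3 called genes per list and direction; some of these are given as counts only. KO and WT libraries of the same number deviated together in the P60 amygdala (r 0.21 to 0.32 over 3 pairs) and the P60 hippocampus (r 0.50 to 0.62 over 2 pairs). The blocked values of Kif3a are therefore printed there. Amygdala and frontal cortex libraries of the same genotype and number did so too at P60 (r 0.11 to 0.21 over 7 pairs), where the block changed no member call. The labels give only a shared number. Alternatives were other pseudocounts, no filter, only the groups compared, WT libraries alone, each library left out, a replicate block, and 3 chosen after seeing the data: scaling to total reads, median-of-ratios scaling and voom on recovered reads.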

Additional observations from a re-analysis of the deposited data

Results flagged for a closer look

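Of 50 group values of the 5 genes in groups of 4 or more libraries, 4 had 1 library far from the others of its group, where chance gives about 1 in 20. Kif3b had 64.45 in KO P30 amygdala replicate 4, against 68.05 to 68.73 in the other 3. Kif17 had 12.01 in KO P30 amygdala replicate 1, against 15.25 to 15.9 in the others. Kif17 had 16.92 in KO P60 amygdala replicate 1, against 20.16 to 20.44 in the others. Kif3c had 127.8 in WT P30 hippocampus replicate 3, the library high in choroid plexus markers, against 166.6 to 173.3 in the others. No value of Kif3a stood out in this way.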

How the results depend on the processing

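Of 376 comparisons of the main results with an alternative, 344 were scored as the same, and no Kif3a fold change reversed. Counts of members called were scored as the same when they differed a little. With each library left out they were 4 to 5 between hippocampus and frontal cortex at P30, and 2 to 4 between amygdala and hippocampus at P60. The Kif3a value of the P60 amygdala was scored by its size and not by a call. Kif3a was lower in KO in all fits of the 7 settings. In the P60 amygdala 1 member was called, and 0 with no filter on low values, with only the groups compared or with the replicate block, and 0 to 1 when each library was left out. In the P60 frontal cortex 1 was called, 0 with only the groups compared (Kif3a -0.41, limma adjusted p = 0.0892) and 0 to 1 with each library left out, when Kif3a ranged over -0.44 to -0.36. In the P30 hippocampus 0 to 1 were called with each library left out, with Kif3a at -0.42 to -0.32. Averaged over the P30 regions Kif3a was -0.31 to -0.25 when each number was left out. Median-of-ratios scaling left 2 members called, not 4, between amygdala and hippocampus at P30. The cause of these changes was not tested.

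With the replicate block, 4 members and not 2 were called between hippocampus and frontal cortex at P60. Beside the P60 amygdala, the block changed no other member call between genotypes, with Kif3a at -0.30 in the E14 cortex and -0.39 in the P60 frontal cortex (limma adjusted p = 0.0333). Over all genes it gave 60 calls and not 6 in the P60 frontal cortex, 2 and not 4 in the P60 amygdala, 9 and not 4 in the P60 hippocampus, 1 and not 6 in the P30 hippocampus and 3 and not 9 in the E14 cortex. Correlations of KO and WT libraries of the same number were -0.40 to 0.26 at E14 and -0.21 to 0.18 at P30. At P60 they were 0.031 to 0.22 in the frontal cortex and 0.50 to 0.62 over the 2 pairs of the hippocampus. The main values of these settings are without the block. With the block, Kif3a in the P60 hippocampus was at -0.31 (SE 0.11, limma adjusted p = 0.93). None of the 428 alternative fold changes of the other 4 members between genotypes was called, voom included. The planned edgeR and DESeq2 fits were not run, because the deposited values are not counts. With 2 to 5 libraries per group, small differences could not be detected.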
